A study of Rattus norvegicus with 6 samples.

Results

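The genes described here are 9 endothelial genes of blood coagulation and fibrinolysis, taken by symbol from the 33566 genes of a count table of rat brain microvascular endothelial cells (rBMECs). They were grouped by role into 3 procoagulant genes (Vwf, F3 and F8), 3 anticoagulant genes (Thbd, Procr and Tfpi) and 3 fibrinolytic genes (Plat, Plau and Anxa2), and all 9 had enough counts to be tested. The cells were primary cultures from the cortex of SD rats 18 to 22 days of age, isolated with a kit, cleared of other cells with a screening solution, grown through one passage in medium with endothelial growth supplements, and treated for 24 h with homocysteine (Hcy, 3 libraries) or with its sterile water vehicle (Veh, 3 libraries). The labels give the Hcy dose as 100 μM and also name a prepared Hcy solution of 50 μM. The sources do not say whether libraries came from separate isolations, so p-values measure the spread between these libraries only. The comparison asks whether Hcy, an amino acid of the methionine cycle, shifted the transcripts through which these cells promote or oppose clotting.

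Endothelium keeps blood fluid by holding inhibitors of coagulation on its surface and by releasing enzymes that dissolve fibrin. Tissue factor (F3) starts coagulation, factor VIII (F8) is a cofactor that speeds it, and von Willebrand factor (Vwf) tethers platelets and carries factor VIII. Thrombomodulin (Thbd) and the endothelial protein C receptor (Procr) together let thrombin activate the anticoagulant protein C, while tissue factor pathway inhibitor (Tfpi) blocks the start of the cascade. Tissue-type (Plat) and urokinase-type (Plau) plasminogen activators turn plasminogen into plasmin, and annexin A2 (Anxa2) is a surface receptor that brings Plat and plasminogen together.

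Libraries held 14024997 to 16764584 counts, and 3 counts, taken as the floor of detection, corresponded to 0.178 to 0.215 CPM (counts scaled to a common library size with edgeR's TMM factors). The floor covers counting error only. Of 16 endothelial markers, 14 were in the table by symbol and 13 were tested, and their summed level was 8131 to 8467 CPM in Hcy and 7642 to 8525 CPM in Veh. Cldn5 was at 0 counts in all 6 libraries. The paper shows the protein of this gene in rBMECs by Western blot. The Cldn5 count is therefore not read as absence of its transcript. Whether annotation or counting missed reads of Cldn5 was not tested. Pecam1 was found only as an unnamed row matched to its mouse protein. Its mean was 869 ± 67.5 CPM (SD, n = 3) for Veh and 1102 ± 53.6 CPM (SD, n = 3) for Hcy. None of the 13 endothelial markers passed the adjusted p in edgeR's quasi-likelihood test, although 7 had an unadjusted p under 0.05, against 13.4% of all genes tested. DESeq2 called 3, against 4.19%, with Kdr higher and Eng and Slc2a1 lower in Hcy. The list did not go one way, with 6 log2 fold changes above 0 and 7 below, a split that the summed level does not show. Among platelet markers, Ppbp was at 0 counts and the whole list of 5 summed to between 1.53 and 3.70 CPM in the 6 libraries. Veh replicate 3 stood apart from Veh replicates 1 and 2 on the second principal component, at 23.6 against -18.2 and -22.3. Values without it are given beside several of the results that it moved.

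All 3 anticoagulant genes fell with Hcy, 1 fibrinolytic gene (Plat) rose, and none of the 3 procoagulant genes passed the test. Thbd fell by 37.7%, Procr by 35.6% and Tfpi by 26.0%, whereas Plat rose by 31.2%. Genes were said to rise or fall where edgeR's quasi-likelihood test gave a p of 0.05 or less after Benjamini-Hochberg adjustment over the 14603 genes with 10 or more counts in all. Errors of log2 fold changes are standard errors (SE) or 95% confidence intervals. By this measure 4 of the 9 genes changed, against a background of 2.34% of all genes tested, 3 of 9 fell against a background of 1.01%, and 1 of 9 rose against a background of 1.32%. None of the 9 reached the absolute log2 fold change of 1 that the study's methods also ask of a differentially expressed gene. The adjusted p and this fold change were passed together by 0.486% of all genes tested and by 0 of the 9, and the count for the 9 was also 0 at an unadjusted p under 0.05 and with DESeq2. The median log2 fold change was -0.63 over the anticoagulant genes, 0.15 over the procoagulant genes and 0.08 over the fibrinolytic genes, beside -0.02 over all genes tested. Without Veh replicate 3 these medians were -0.54 (Procr), -0.026 (F8) and 0.15 (Anxa2), beside -0.003 over all genes tested.

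**Figure D1:**
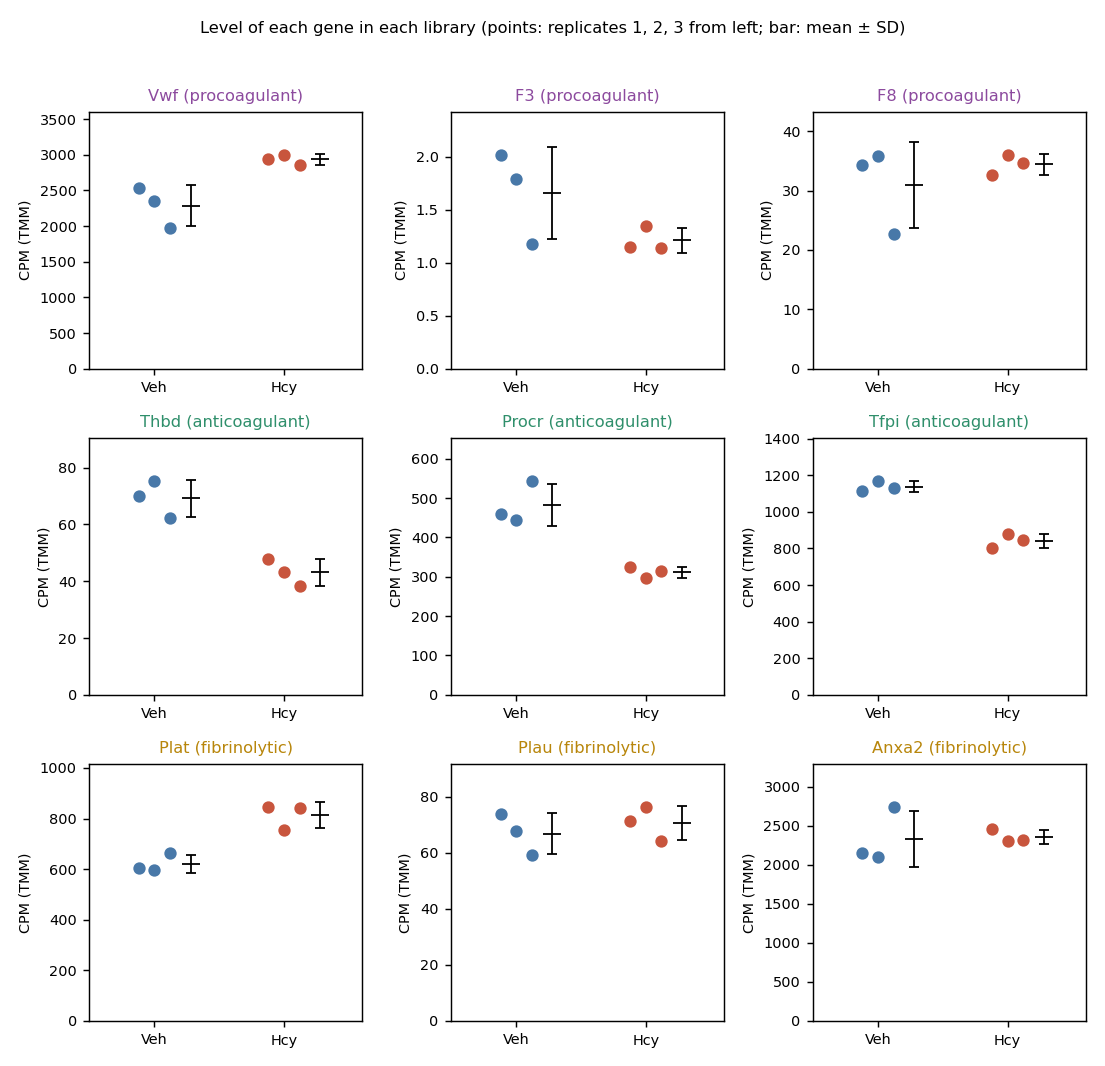
Level of each of the 9 genes in each library, in TMM-scaled CPM from 0 on the vertical axis, with replicates 1, 2 and 3 of Veh and of Hcy from left to right and the mean ± SD beside them. Every Hcy library lay below every Veh library for Thbd, Procr and Tfpi and above every Veh library for Plat and Vwf, whereas the groups overlapped for F3, F8, Plau and Anxa2.

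Thbd, on chromosome 3 from 142748674 to 142752325 in the positions of the deposited table, had the largest relative fall of the 9. It stood at 69.9, 75.4 and 62.4 CPM in Veh replicates 1, 2 and 3 and at 47.9, 43.3 and 38.4 CPM in Hcy replicates 1, 2 and 3. The groups did not overlap, and the lowest Veh library was well above the highest Hcy library. The means were 69.2 ± 6.57 CPM (SD, n = 3) in Veh and 43.2 ± 4.76 CPM (SD, n = 3) in Hcy, which gave -0.68 as log2 fold change (SE 0.10, adjusted p = 0.0131 by edgeR's quasi-likelihood test). Thrombomodulin binds thrombin and turns it from a clotting enzyme into an activator of protein C.

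Procr, the receptor that presents protein C to the thrombin-thrombomodulin complex, lies on the same chromosome from 151285249 to 151289595 and fell by a similar proportion. Its Veh libraries held 459, 445 and 544 CPM and its Hcy libraries 324, 296 and 313 CPM. Again every Hcy library was below every Veh library, and Veh replicate 3 was the highest of all. The log2 fold change was -0.63 (SE 0.09, adjusted p = 0.0102 by edgeR), with a 95% confidence interval of -0.83 to -0.43. Without Veh replicate 3 it was -0.54 (adjusted p = 0.000497 from the same test).

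Tfpi, on chromosome 3 from 71852744 to 71893618, had the smallest SD relative to the mean in CPM among the anticoagulant genes, in Veh and in Hcy. It was at 1114, 1171 and 1129.6 CPM in Veh and at 804, 878 and 844 CPM in Hcy. All Hcy libraries again lay below all Veh libraries. Mean levels were 1138 ± 29.4 CPM (SD, n = 3) and 842 ± 37.1 CPM (SD, n = 3), and the log2 fold change was -0.43 (SE 0.06, adjusted p = 0.0114 by edgeR). The 3 falls ranked 78, 93 and 125 by p among the 14603 genes tested for Procr, Tfpi and Thbd.

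Plat, which encodes tissue-type plasminogen activator and lies on chromosome 16 from 74098260 to 74122889, moved the other way. Its level was 604, 597 and 662 CPM in Veh and 847, 754 and 842 CPM in Hcy. No Veh library reached the lowest Hcy library. The log2 fold change was 0.39 (SE 0.07, adjusted p = 0.0310 by edgeR). The groups did not overlap for 5 of the 9 genes in all, against 20.1% of all genes tested; 3 were lower in every Hcy library, against 9.27%, and 2 were higher, against 10.8%.

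The other 2 fibrinolytic genes overlapped between groups. Plau, on chromosome 15 from 3644769 to 3650819, held 73.7, 67.8 and 59.2 CPM in Veh and 71.4, 76.5 and 64.3 CPM in Hcy, a log2 fold change of 0.08 with a 95% interval of -0.15 to 0.31 (adjusted p = 0.818 by edgeR). Anxa2, on chromosome 8 from 75687100 to 75723594, held 2149, 2099 and 2747 CPM in Veh and 2459.5, 2304 and 2315 CPM in Hcy. Veh replicate 3 was its highest library, above all Hcy libraries, while Veh replicates 1 and 2 were below them. The log2 fold change of Anxa2 was 0.02 with an interval of -0.21 to 0.25 (adjusted p = 0.967 by edgeR), so a change of more than about 0.25 in either direction lay outside the interval. Without Veh replicate 3 the log2 fold change of Anxa2 was 0.15 (adjusted p = 0.0980 by edgeR).

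Among the procoagulant genes, Vwf came closest to the threshold. It lies on chromosome 4 from 158088505 to 158219523 and held 2533, 2355 and 1976 CPM in Veh against 2940.3, 3003 and 2858 CPM in Hcy. Every Hcy library was above every Veh library, and Veh replicate 3 was the lowest. The log2 fold change was 0.36 (SE 0.09) but the adjusted p was 0.0932 by edgeR, above the threshold. It was 0.00956 with DESeq2 and 0.0490 by edgeR with a minimum of 1 count, and without Veh replicate 3 the log2 fold change was 0.26 (adjusted p = 0.0118 by edgeR).

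F8 and F3 were low and overlapped between groups. F8, on chromosome 18 from 367862 to 399242, held 34.4, 35.7 and 22.6 CPM in Veh and 32.6, 36.1 and 34.6 CPM in Hcy (log2 fold change 0.15, interval -0.20 to 0.51, adjusted p = 0.757 by edgeR). Only Veh replicate 3 lay apart from the rest, and without it the log2 fold change was -0.026. F3, on chromosome 2 from 225310624 to 225322272, had just 34, 28 and 17 counts in Veh and 16, 20 and 19 counts in Hcy. Its log2 fold change was -0.46 with a wide interval of -1.15 to 0.23 (adjusted p = 0.592 by edgeR), so a fall by up to a log2 fold change of 1.15 could not be told from no change at this depth.

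Leaving out 1 library ended some of the calls but kept the direction of Thbd, Procr, Tfpi, Plat and Vwf in each of the 6 fits. Of the 4 changed genes, Thbd remained called without Hcy replicate 1, none without Hcy replicate 2 or Hcy replicate 3, Procr and Tfpi without Veh replicate 1, Procr without Veh replicate 2, and all 4 without Veh replicate 3, with adjusted p up to 0.0799, 0.0693, 0.0825 and 0.189 for Thbd, Procr, Tfpi and Plat by edgeR.

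Set against one another in each library, the procoagulant genes stood higher relative to the anticoagulant genes in Hcy, and overlapped between groups relative to the fibrinolytic genes. The mean log2 CPM of the anticoagulant genes was 8.37, 8.41 and 8.40 in Veh replicates 1 to 3 and 7.86, 7.81 and 7.76 in Hcy replicates 1 to 3. That of the procoagulant genes was 5.84, 5.77 and 5.28 in Veh and 5.64, 5.76 and 5.65 in Hcy, and that of the fibrinolytic genes 8.84, 8.78 and 8.89 in Veh and 9.05, 8.996 and 8.97 in Hcy. The procoagulant mean minus the anticoagulant mean was therefore -2.53, -2.64 and -3.12 in Veh and -2.22, -2.05 and -2.11 in Hcy, without overlap. The procoagulant mean minus the fibrinolytic mean overlapped, at -3.00, -3.01 and -3.61 in Veh and -3.41, -3.23 and -3.32 in Hcy. This overlap rested on Veh replicate 3, without which all Hcy libraries lay below both Veh libraries. Against the mean of all 6 anticoagulant and fibrinolytic genes the balance was higher in Hcy by 0.26, and by 0.07 without Veh replicate 3, and the groups overlapped with and without that library. These differences are descriptions without a test, since the genes were chosen with results known, and F3 with its few counts weighs as much in them as Vwf.

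**Figure D2:**
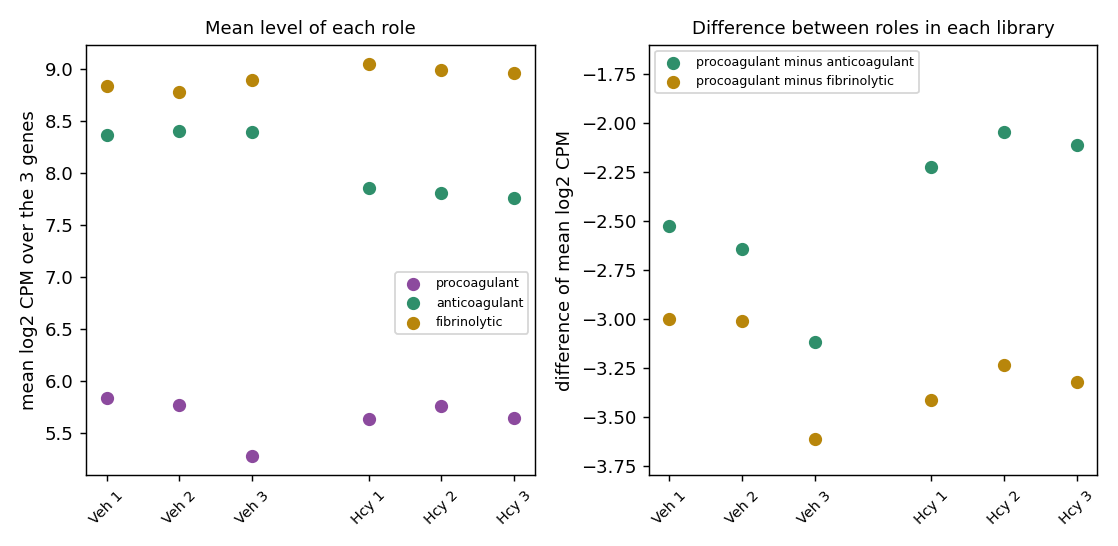
Mean log2 CPM over the 3 genes of each role in each library (left) and the difference between the procoagulant mean and each of the other two (right), with Veh libraries left of Hcy libraries on the horizontal axis. The procoagulant minus anticoagulant difference lay between -3.12 and -2.53 in Veh and between -2.22 and -2.05 in Hcy, whereas the procoagulant minus fibrinolytic difference overlapped between groups through Veh replicate 3.

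Per length, in TPM (counts divided by the deposited gene lengths and scaled to the same total in each library), the 9 genes spanned a wide range. Anxa2 was the most abundant at 3112 ± 156 TPM (SD over the 6 libraries), the 29th gene of the table, and was above each of the others in all 6 libraries. Vwf, Plat, Procr and Tfpi followed at 544 ± 96.5, 517 ± 83.8, 493 ± 113 and 469 ± 80.3 TPM (SD over the 6 libraries), and neighbours among these 4 overlapped. Plau at 67.5 ± 8.68, Thbd at 28.2 ± 8.01, F8 at 7.24 ± 1.39 and F3 at 1.45 ± 0.431 TPM (SD over the 6 libraries) were each separate from the next. In Veh the order among the 4 similar genes was Procr (594 TPM), Tfpi (535 TPM), Vwf (475 TPM) and Plat (443 TPM). In Hcy it was Vwf (614 TPM), Plat (591 TPM), Tfpi (402 TPM) and Procr (391 TPM), so that both anticoagulant transcripts stood above the other two in Veh and below them in Hcy.

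**Figure D3:**
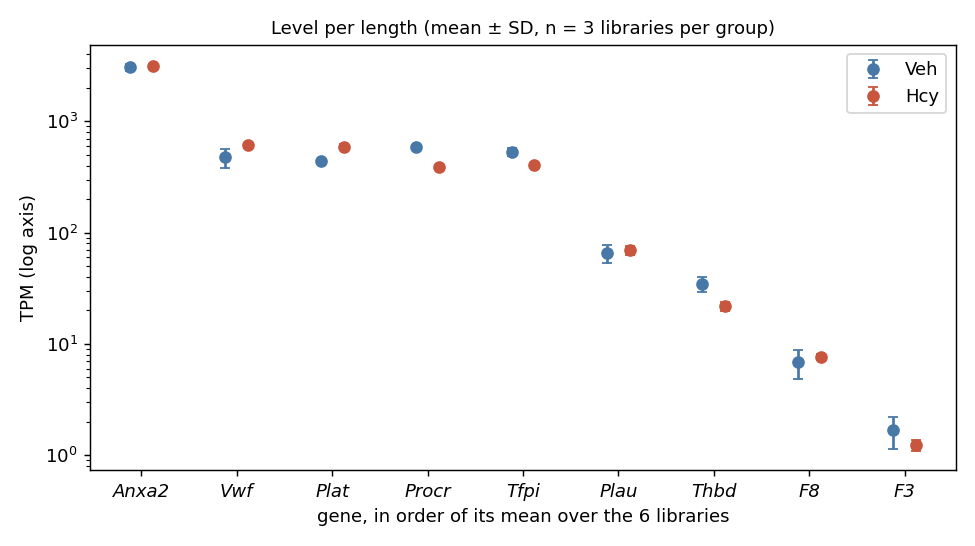
Level per length of the 9 genes on a log axis in TPM, in descending order of their mean over the 6 libraries, with the mean ± SD of the 3 Veh and the 3 Hcy libraries. Anxa2 averaged 3112 TPM and F3 1.45 TPM, and Vwf, Plat, Procr and Tfpi lay between 391 and 614 TPM, with Procr and Tfpi lower and Vwf and Plat higher in Hcy.

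Partners of these genes were compared within each library as ratios per length. Anxa2 over S100a10, the partner with which it forms the plasminogen-binding complex, was 7.998, 7.402 and 6.471 in Veh and 8.484, 9.624 and 8.688 in Hcy, without overlap. It was the only ratio compared here without overlap, and 20.1% of all genes tested did not overlap between groups. No ratio was tested, and Anxa2 itself had an adjusted p of 0.967 by edgeR. S100a10 was at 136 ± 35.8 CPM (SD, n = 3) in Veh and 110 ± 10.5 CPM (SD, n = 3) in Hcy, with an adjusted p of 0.508 by edgeR. Its log2 fold change was -0.30, and -0.06 without Veh replicate 3, its highest library. Tfpi over F3 overlapped between groups, from 260 to 452 in Veh and from 308 to 350 in Hcy. Tfpi transcripts thus far outnumbered those of its target in each library, but F3 had only 16 to 34 counts, so the size of this ratio is imprecise. The ratios of Plau to its receptor gene Plaur, Plat to Plau, Vwf to F8 and Thbd to Procr overlapped between groups as well. Without Veh replicate 3 the ratios of Plat to Plau and of Vwf to F8 were higher, and that of Thbd to Procr lower, in all Hcy libraries than in both Veh libraries. Groups separate more easily with fewer libraries, and the share of all genes that would do so was not computed.

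The other genes of the pathway were a list of 67, of which 65 were in the table and 44 were tested. Of these 44, 1 rose, 2 fell and 41 did not pass the test, 6.82% called against the background of 2.34%, and their median log2 fold change was -0.04 beside -0.02 over all genes tested. With DESeq2 6 were called, against 4.19% of all genes tested. The gene that rose was Serpine2, which encodes protease nexin-1, an inhibitor of thrombin and of plasminogen activators. It held 44.6, 46.8 and 43.3 CPM in Veh and 77.8, 70.7 and 72.2 CPM in Hcy, without overlap, a log2 fold change of 0.71 (SE 0.08, adjusted p = 0.00235 by edgeR). It stayed called whichever of the 6 libraries was left out.

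Both genes that fell were transcription factors of the Krüppel-like family, which are known as activators of Thbd in endothelium. Klf4 was at 38.5, 37.0 and 36.3 CPM in Veh and at 16.5, 19.5 and 21.6 CPM in Hcy. Its Hcy libraries lay far below its Veh libraries, with a log2 fold change of -0.95 (SE 0.11, adjusted p = 0.00415 by edgeR). Klf2 was at 56.5, 49.4 and 53.7 CPM in Veh and at 38.1, 35.9 and 37.1 CPM in Hcy, also without overlap. Its log2 fold change was -0.52 (SE 0.08, adjusted p = 0.0129 by edgeR), and its adjusted p was above the threshold without Hcy replicates 1, 2 or 3 or Veh replicate 1, with a maximum of 0.0825. In this role 4 of 6 genes had an unadjusted p under 0.05, against 13.4% of all genes tested. Among the other 4 factors, Egr1 was above every Veh library in each Hcy library, with a log2 fold change of 0.63 that did not pass (adjusted p = 0.233 by edgeR). Erg, an endothelial factor, had a log2 fold change of -0.05 (adjusted p = 0.862 by edgeR), while Gata2 was called by DESeq2 and had an adjusted p of 0.0605 by edgeR.

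**Figure D4:**
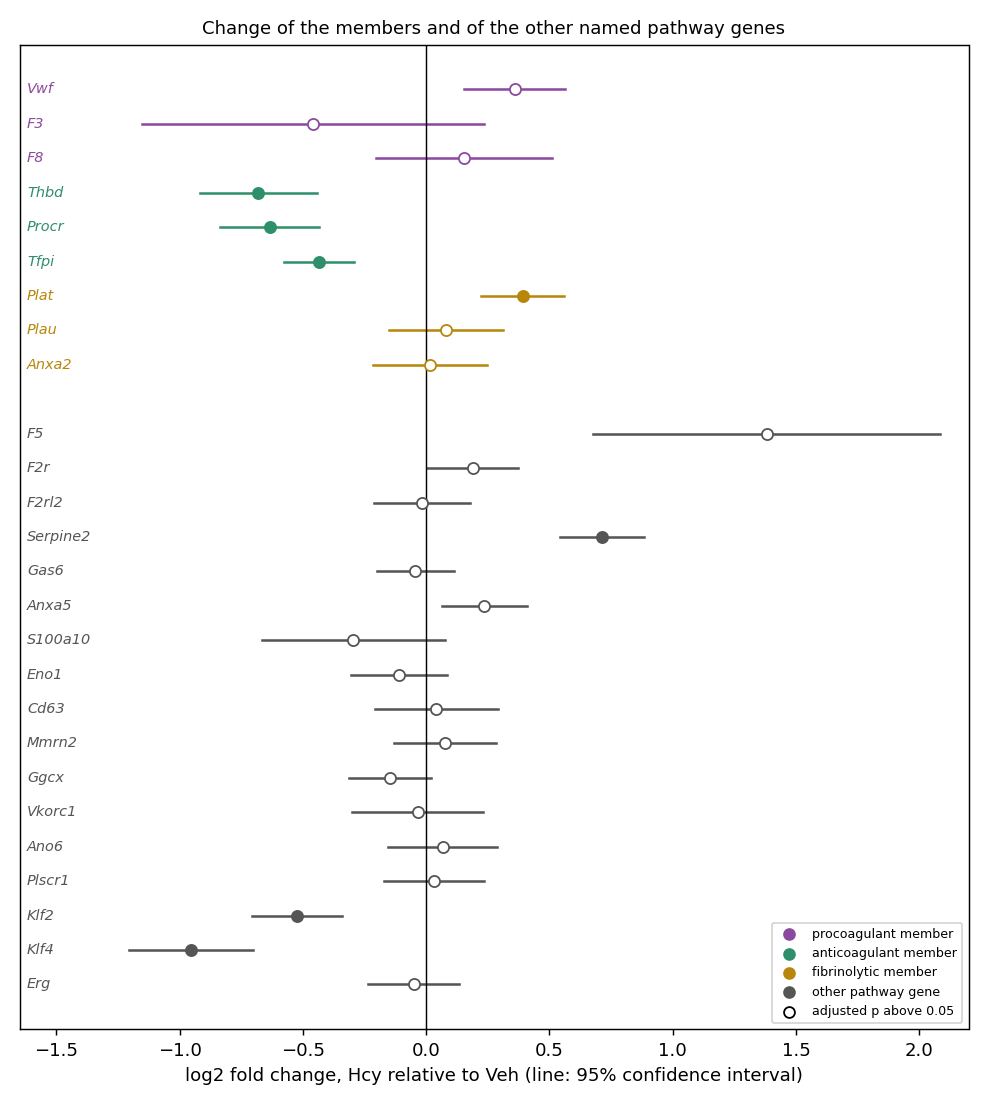
Log2 fold change of Hcy relative to Veh with its 95% confidence interval for the 9 genes (coloured by role) and for other pathway genes named by rule (grey), filled where edgeR's adjusted p was at most 0.05. The 3 anticoagulant genes lay between -0.68 and -0.43, Klf4 at -0.95 and Serpine2 at 0.71, and the very low Fgg and Serpinf2 are left out.

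No other gene of the pathway passed edgeR's adjusted p. Of 4 tested coagulation factors and fibrinogen genes, F5, the factor V cofactor of prothrombin activation, had 15, 13 and 15 counts in Veh and 44, 34 and 30 counts in Hcy, a log2 fold change of 1.38 that did not pass (adjusted p = 0.0597 by edgeR). It was the only gene of the role with an unadjusted p under 0.05, and it passed with DESeq2 (adjusted p = 0.0344) and by edgeR with filterByExpr (0.0495), with a minimum of 1 count (0.0400) and without Veh replicate 3 (log2 fold change 1.47, adjusted p = 0.0414). The other genes of this role were hardly counted, with 11 of 15 genes under the minimum and 5 of them at 0 counts in all libraries, and Fgg, which had the next highest level per length, had at most 7 counts in a library. For the counts that follow, 13.4% of all genes tested had an unadjusted p under 0.05. Of 4 thrombin and protease receptors, 3 had one and DESeq2 called F2rl1. F2r, the main thrombin receptor, was at 317 ± 28.0 CPM (SD, n = 3) in Veh and 361 ± 19.7 CPM (SD, n = 3) in Hcy (adjusted p = 0.366 by edgeR), and F2rl2 had a log2 fold change of -0.02 (adjusted p = 0.963). Besides Serpine2, which passed, 2 of the other 6 tested genes in the list of coagulation inhibitors had an unadjusted p under 0.05. Gas6, the most abundant gene of that list, is a vitamin K-dependent ligand rather than an inhibitor. Its log2 fold change was -0.04 (adjusted p = 0.856 by edgeR). Anxa5, which covers the phosphatidylserine that clotting needs, had one of 0.24 (adjusted p = 0.195, and 0.0137 without Veh replicate 3, both by edgeR).

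Of 5 tested genes for plasminogen receptors and partners, 1 had an unadjusted p under 0.05 and DESeq2 called 0. Eno1, a glycolytic enzyme that also binds plasminogen at the cell surface, had a log2 fold change of -0.11 (adjusted p = 0.662 by edgeR), and of -0.013 without Veh replicate 3. Plg itself had at most 8 counts in a library and was not tested. Serpinf2, which encodes the plasmin inhibitor α2-antiplasmin, had 4 counts or fewer in each library. Of 11 tested genes for Weibel-Palade bodies, the storage granules of Vwf, and for handling of Vwf and factor VIII, 1 had an unadjusted p under 0.05 and DESeq2 called 0. Cd63, a granule membrane protein, and Mmrn2, an endothelial matrix protein, had log2 fold changes of 0.04 and 0.08 (adjusted p = 0.926 and 0.794 by edgeR). The 3 vitamin K cycle genes and the 3 genes for exposure of phosphatidylserine had 0 genes with an unadjusted p under 0.05 and 0 called by DESeq2. Log2 fold changes were -0.15 for the carboxylase gene Ggcx, -0.03 for Vkorc1, 0.07 for the scramblase gene Ano6 and 0.03 for Plscr1, with adjusted p from 0.454 to 0.944 by edgeR.

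Promoter sequences of the anticoagulant genes Procr and Tfpi are shown because the anticoagulant genes moved together, while Thbd had no matched sequence. Sequences of 250 bases before the start came from RefSeq on GRCr8, in which 4 of the 9 genes were matched (Procr, Tfpi with 2 starts, Plau and Anxa2). Capitals mark CCACCC, a box that Krüppel-like factors bind, and TGACTCA, the AP-1 site, on either strand; the motifs do not overlap in these windows. Anxa2, which did not pass the test, is shown for comparison. Procr is at chr3:164714477-164714726 on the plus strand, Tfpi start 1 at chr3:89980725-89980974 and Tfpi start 2 at chr3:89983544-89983793 on the minus strand, and Anxa2 at chr8:78986002-78986251 on the plus strand.
Procr: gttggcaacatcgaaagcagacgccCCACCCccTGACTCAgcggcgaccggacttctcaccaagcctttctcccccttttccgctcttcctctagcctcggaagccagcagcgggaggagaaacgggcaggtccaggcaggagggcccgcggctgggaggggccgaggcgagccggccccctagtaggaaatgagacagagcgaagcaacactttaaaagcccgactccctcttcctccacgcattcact
Tfpi start 1: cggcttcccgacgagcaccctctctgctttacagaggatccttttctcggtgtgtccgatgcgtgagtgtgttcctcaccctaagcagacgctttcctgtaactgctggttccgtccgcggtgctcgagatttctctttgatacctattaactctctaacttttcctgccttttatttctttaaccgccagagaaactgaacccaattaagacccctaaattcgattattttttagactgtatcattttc
Tfpi start 2: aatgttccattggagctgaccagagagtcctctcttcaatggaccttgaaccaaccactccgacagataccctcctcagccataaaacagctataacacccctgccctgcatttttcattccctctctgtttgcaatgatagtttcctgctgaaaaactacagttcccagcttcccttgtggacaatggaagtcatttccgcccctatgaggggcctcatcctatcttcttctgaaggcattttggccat
Anxa2: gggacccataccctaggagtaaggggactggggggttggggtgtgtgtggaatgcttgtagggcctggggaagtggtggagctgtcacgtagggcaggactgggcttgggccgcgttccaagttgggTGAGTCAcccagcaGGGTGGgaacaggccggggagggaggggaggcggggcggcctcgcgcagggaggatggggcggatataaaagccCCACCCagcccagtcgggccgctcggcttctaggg
Procr held 1 CCACCC and 1 TGACTCA, Anxa2 held 2 and 1, and both Tfpi windows and the Plau window, which is not printed, held 0 of each. The other motif searched, the SP box GGGCGG, is not in capitals and was found 0 times in Procr, 0 in Tfpi start 1, 1 in Tfpi start 2, 3 in Plau and 2 in Anxa2. Of 33469 RefSeq windows of this length, 26.1% held CCACCC, 4.05% held TGACTCA and 30.5% held GGGCGG on either strand. Of the genes that fell, Procr thus held CCACCC and TGACTCA, Tfpi held neither and Thbd had no window. Of the genes that did not pass, Anxa2 held both and Plau neither. A match of letters is a description, and it was not tested which start these cells use.

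Markers of other cells were measured beside these changes. Of 9 pericyte and smooth muscle markers, Tagln and Acta2 fell and 7 did not pass the test. The list did not go one way, with 5 of 9 log2 fold changes above 0 and a median of 0.55, and the 7 that did not pass ranged from -0.99 for Kcnj8 to 1.66 for Cspg4 (adjusted p = 0.460 and 0.188 by edgeR). The summed level of the list was 673 to 699 CPM in Hcy and 1103 to 1329.6 CPM in Veh, without overlap. Tagln made most of this sum, with means of 1071 ± 91.4 CPM (SD, n = 3) for Veh and 582 ± 9.44 CPM (SD, n = 3) for Hcy, while the 7 markers other than Tagln and Acta2 had at most 54 counts in a library. The 5 fibroblast markers in the table summed to 44.9 to 68.7 CPM in Hcy and 63.5 to 91.2 CPM in Veh, and Dcn and Lum had at most 5 counts. Col1a1 made most of that sum (log2 fold change -0.52, adjusted p = 0.264 by edgeR), whereas the other 3 tested fibroblast markers had log2 fold changes above 0, with 0.47 for Col3a1 (adjusted p = 0.363 by edgeR), and the median of the 4 was 0.30. The microglial markers Ptprc, Cx3cr1 and P2ry12 and the astrocyte marker Aqp4 were at 0 counts. The rest of both lists had at most 11 counts in a library (Slc1a3). Among neuron markers Syt1 had 17 to 44 counts (log2 fold change 0.85, adjusted p = 0.195 by edgeR) and the others at most 2. Among epithelial and mesothelial markers Msln had 30 to 39 counts and the others at most 8. Whether Tagln and Acta2 came from pericytes and smooth muscle or from the endothelial cells was not tested. The part of any other cells in the changes of Thbd, Procr, Tfpi and Plat was not tested either. In bulk RNA fewer cells of a type cannot be told apart from less RNA per cell.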

How the data were processed

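RNA of 6 rBMEC libraries, 3 Hcy and 3 Veh by their titles, was sequenced from poly(A) RNA. The authors deposited raw read counts per gene without normalization, with gene positions and gene lengths in bases. The submitters' processing notes name fastp, HISAT2 2.2.1, StringTie 2.2.3, Cufflinks, featureCounts 2.0.6 and DESeq2 1.42.0, and mRatBN7.2. The table itself names no build, and its positions reach 282724300 on chromosome 1, beyond the end of that chromosome in mRatBN7.2. Positions are therefore given as deposited, and were not read as mRatBN7.2 or any other build. Whether counting used the strand is not given in the sources used here. The only overlapping gene of the 9 (within Anxa2) had 0 counts, and rows sharing a Swiss-Prot match with Plat and Anxa2 held 390 and 1092 counts over all libraries against 66233 and 216153. The deposited DESeq2 comparison (normalized signal, log2 fold changes and p-values) was not used.

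Counts were analysed with R 4.3.3, edgeR 4.0.16 (on limma 3.58.1) and, as an alternative, DESeq2 1.42.0. A gene entered when its counts over the 6 libraries came to 10 or more. Libraries were scaled by TMM, and Hcy was compared with Veh by edgeR's quasi-likelihood test, with no other covariate and with Benjamini-Hochberg adjustment over all genes tested. Standard errors come from the fold change and the F statistic. Mean log2 CPM used a prior count of 2. The members and gene lists were chosen with earlier results of these data known. 1 gene of the pathway list is not reported here and was left out of its counts. Named pathway genes were those past the adjusted p and the 2 highest per length of each role. Alternatives were DESeq2, its size factors, library totals alone, filterByExpr, a minimum of 1 count, the replicate number as a block, a prior count of 0.5 and each library left out. The tests were checked on simulated counts.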

Additional observations from a re-analysis of the deposited data

How the results depend on the processing

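The 4 changed genes (Thbd, Procr, Tfpi and Plat) were called under DESeq2, DESeq2 size factors, library totals alone, filterByExpr, a minimum of 1 count and the replicate block, and their direction held in these and in all fits that left out a library. Replicate numbers did not pair the samples by the deviations of same-numbered libraries (mean correlation 0.050 against -0.025 for differently numbered ones). With the replicate block the log2 fold changes were -0.68, -0.63, -0.44 and 0.39, and the block changed no call among the 9 genes and the pathway genes. Of all genes, 298 passed the adjusted p with the block against 341 without it, and 82 against 71 passed both thresholds. With each library left out, between 0 and 5 of the 9 genes, 2 to 7 pathway genes and 80 to 957 of all genes passed the adjusted p, and 39 to 112 of all genes passed both thresholds, the highest counts without Veh replicate 3. These fits hold fewer libraries, and the cause of the spread was not tested. The procoagulant balance ran from 0.07 to 0.37. DESeq2 called 6 pathway genes and 612 of all genes. A minimum of 1 count gave 5 pathway genes and 109 genes past both thresholds. Log2 fold changes that changed sign when a library was left out lay near 0, and their lowest and highest values were -0.026 and 0.27 for F8, -0.0013 and 0.16 for Plau, -0.055 and 0.15 for Anxa2, -0.038 and 0.15 for Ano6, -0.024 and 0.10 for Plscr1, -0.089 and 0.025 for F2rl2, -0.12 and 0.020 for Erg, -0.11 and 0.083 for Vkorc1, -0.058 and 0.17 for Cd63, and -0.018 and 0.15 for Mmrn2. Without Veh replicate 3 the sign changed for F8, Plau, Ano6, Vkorc1 and Mmrn2. Depth limits F3, F5, Fgg and Serpinf2, which had few counts in each library.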

Other observations

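Genes with the pattern most like each changed gene were sought among 11779 tested genes with a mean of at least 1 CPM, by Pearson's r of log2 CPM over the 6 libraries. The r values below are the 2 highest of each search, so they are given as a description without a test, and they rest on libraries that share their group. Closest to Thbd were Gprc5c (r = 0.997) and Pkp4 (r = 0.993), and closest to Procr were Krt7 (r = 0.996) and Slc9a3r2 (r = 0.995). Closest to Tfpi were Stk4 (r = 0.995) and Mdm2 (r = 0.992), and closest to Plat were Tmem123 (r = 0.998) and Cyp51 (r = 0.995). Of these, Gprc5c, Krt7, Slc9a3r2 and Mdm2 fell, with log2 fold changes of -0.75, -0.61, -0.49 and -0.72 (adjusted p = 0.0250, 0.0160, 0.0145 and 0.00353 from edgeR's quasi-likelihood test). Pkp4 and Stk4 had log2 fold changes of -0.17 and -0.34 and did not pass the same test (adjusted p = 0.313 and 0.1252). Tmem123 and Cyp51, the sterol demethylase of cholesterol synthesis, had log2 fold changes of 0.24 and 0.28 and did not pass the test (adjusted p = 0.135 and 0.0953 from the same test).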
